A study of Mus musculus and Rattus norvegicus with 28 samples.

Results

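The 10 genes described here encode the β-tubulin isotypes Tubb2a, Tubb2b, Tubb3, Tubb4a, Tubb4b, Tubb5 and Tubb6, the α-tubulin isotypes Tuba1a and Tuba4a, and stathmin 1 (Stmn1). They were found by gene symbol, and all 10 were present among 55450 mouse genes and among 32623 rat genes. All 10 passed the expression filter of 1 FPKM (fragments scaled to transcript length and library depth) in both species. In mouse, Tubb4a (0 of 2 E18.5 libraries at 1 FPKM or more) and Tubb3 (1 of 2) passed only through the later groups in which they were high, and so did Tubb4a through TSA in rat. Their differences from those low groups are given as values, with no p, since the filter favours them. The set was chosen with the values of these libraries known. Tubb4a was selected on its rise with trichostatin A (TSA) in rat, so its rat values are given as a description, with no test.

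Microtubules are polymers of α/β-tubulin dimers. The isotypes of each family are encoded by separate genes, and the acidic tail of the proteins at the carboxy terminus faces outward from the polymer and carries many of the modifications and binding sites. Stathmin binds free tubulin dimers and promotes the shortening of microtubules. Tubulin mRNA levels are also held in check by the amount of free dimer in the cell. In the heart, microtubules form a network around the nucleus and along the myofibrils of cardiomyocytes, and they build the spindle in dividing cells.

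The mouse libraries came from ventricular cells of wild-type C57BL/6 animals on embryonic day 18.5 (E18.5) and postnatal days 1, 3 and 7 (P1, P3 and P7), and each time point had 2 RNA-seq and 2 ATAC-seq libraries. These cells were dissociated with enzymes and pre-plated to remove cells other than cardiomyocytes. The rat libraries were RNA-seq of neonatal ventricular cardiomyocyte cultures from wild-type P1 Sprague Dawley pups, treated with DMSO as the vehicle or with 100 nM TSA, an inhibitor of histone deacetylases, with 3 libraries each. Depth, counted in units of 1000000 aligned reads, was 29.3 to 37.5 per mouse library and 28.2 to 38.5 per rat library. The study's methods call its replicates biological, while the labels do not tie the libraries of a group to separate animals, litters or cultures, so the p-values measure the spread between these libraries.

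Several facts about the libraries stand beside every result. In mouse, all 16 of 16 cardiomyocyte markers were called lower at P7 than at E18.5 (median log2 fold change -4.26), and their summed level went from 30953 to 40332 FPKM at E18.5 to 1212 to 2627 FPKM at P7. Of the 12 fibroblast markers, 10 were called higher at P7, and their sum went from 591 to 600 FPKM at E18.5 to 3063 to 3799 FPKM at P7. So the defining markers of the labelled cell type were detected at all time points and much lower at P7, where 1 of the 16 lay below 1 FPKM in both libraries. Of 10 smooth muscle and pericyte markers, 5 were called higher and 3 lower at P7. The 8 erythroid markers summed to 29046 to 35395 FPKM at E18.5 and to at most 41.0 FPKM in any later library. The 10 most abundant genes took 20.2% to 20.3% of TPM (transcript abundance scaled to a fixed total) at E18.5 and 6.69% to 11.6% later. In rat, cardiomyocyte markers summed to 16821 to 27176 FPKM with DMSO and to 15360 to 38049 FPKM with TSA, and fibroblast markers to 6637 to 7235 FPKM and 3783 to 6191 FPKM. The replicate 3 libraries of both treatments stood apart, with correlations of 0.953 to 0.966 with their group and 0.983 to 0.984 between the other replicates. The part of cell composition in the tubulin values was not tested. In bulk RNA a change in the number of cells of a type and a change in RNA per cell cannot be told apart.

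The sequence of the isotypes bears on how far their reads can be separated. The last 60 coding bases of 5 β isotypes, which encode the end of the tail, are shown so that the isotypes can be compared there. They were read from GENCODE vM21 transcripts (mm10), 5′ to 3′ on the coding strand, and capitals mark bases that differ from Tubb5 or have no counterpart in it in a global alignment.
Tubb5 (chr17:35834985-35835044, minus strand): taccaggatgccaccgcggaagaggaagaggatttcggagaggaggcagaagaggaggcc
Tubb4b (chr2:25222311-25222370, minus strand): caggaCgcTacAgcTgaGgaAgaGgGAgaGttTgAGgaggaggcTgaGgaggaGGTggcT
Tubb2a (chr13:34074471-34074530, minus strand): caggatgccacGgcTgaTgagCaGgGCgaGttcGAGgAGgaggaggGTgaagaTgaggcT
Tubb4a (chr17:57080693-57080752, minus strand): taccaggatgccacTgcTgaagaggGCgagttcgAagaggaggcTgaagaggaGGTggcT
Tubb3 (chr8:123421620-123421679, plus strand): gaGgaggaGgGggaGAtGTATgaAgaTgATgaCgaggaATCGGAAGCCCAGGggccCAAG

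In these 60 bases Tubb3 held 32 bases in capitals, Tubb4b 19, Tubb2a 17 and Tubb4a 10. After the first 1200 coding bases Tubb3 was 72.7% identical to Tubb5, against 82.3% before, whereas for Tubb4a the values were 84.4% and 83.8%, so this end was not more divergent in every pair. Over the whole coding sequence, Tubb2a and Tubb2b, which lie next to each other on mouse chromosome 13, were 96.5% identical, and all other pairs of β members were 80.2% to 85.9% identical. Windows of 150 bases, the read length, were then searched in all other mouse transcripts. None of the windows of Tubb3, Tubb4a, Tubb5, Tubb6 and Tuba4a occurred in the transcript of another gene (0%). The share was 27.9% for Tubb2a and 20.1% for Tubb2b, mostly with each other, 16.8% for Tubb4b with the pseudogene Tubb4b-ps1, and 16.6% for Stmn1 with Gm11223. For Tuba1a it was 54.7%, spread over 9 other genes, of which Tuba1c shared the most. With windows of 75 bases the shares were 43.2% for Tubb2a, 32.2% for Tubb2b, 37.8% for Tubb4b, 30.5% for Stmn1 and 68.2% for Tuba1a. The levels of these 5 genes are less certain for this reason, by an amount that was not measured. The same search was not made for rat.

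The first question was how the levels of these genes moved from the late fetal to the neonatal ventricle. Of the 10 members, 6 were called higher and 0 lower at P1 than at E18.5, where 10.1% and 6.06% of all 13979 genes tested were called higher and lower. At P3, 7 were called higher and 0 lower, against 13% and 8.88% of all genes, and at P7, 6 were called higher and 0 lower, against 15.4% and 12.3%. Calls required a log2 fold change beyond 1 in either direction as well as an adjusted p below 0.05 (limma on log2(FPKM + 1), Benjamini-Hochberg over all genes tested). Without Tubb3 and Tubb4a, which the filter favours, the counts were 5, 5 and 4 of 8. These comparisons share the E18.5 libraries. The median log2 fold change of the members was 1.08 (P1), 1.28 (P3) and 1.27 (P7). For all genes tested these medians were 0.15, 0.16 and 0.15, a shift that median-of-ratios size factors brought to 0.04, 0.04 and 0.05. Read relative to it, that is with size factors, 4, 7 and 5 of all 10 members were called at the 3 time points. These counts cover Tubb3 and Tubb4a too, whose differences from E18.5 are values and not tests. A count without these genes was not made with size factors. Over all genes, the split at P1 was 1411 higher to 847 lower as deposited and 1107 to 1077 with size factors. At P3 it was 1814 to 1241 and 1476 to 1482, and at P7 it was 2155 to 1715 and 1862 to 1922.

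**Figure D1:**
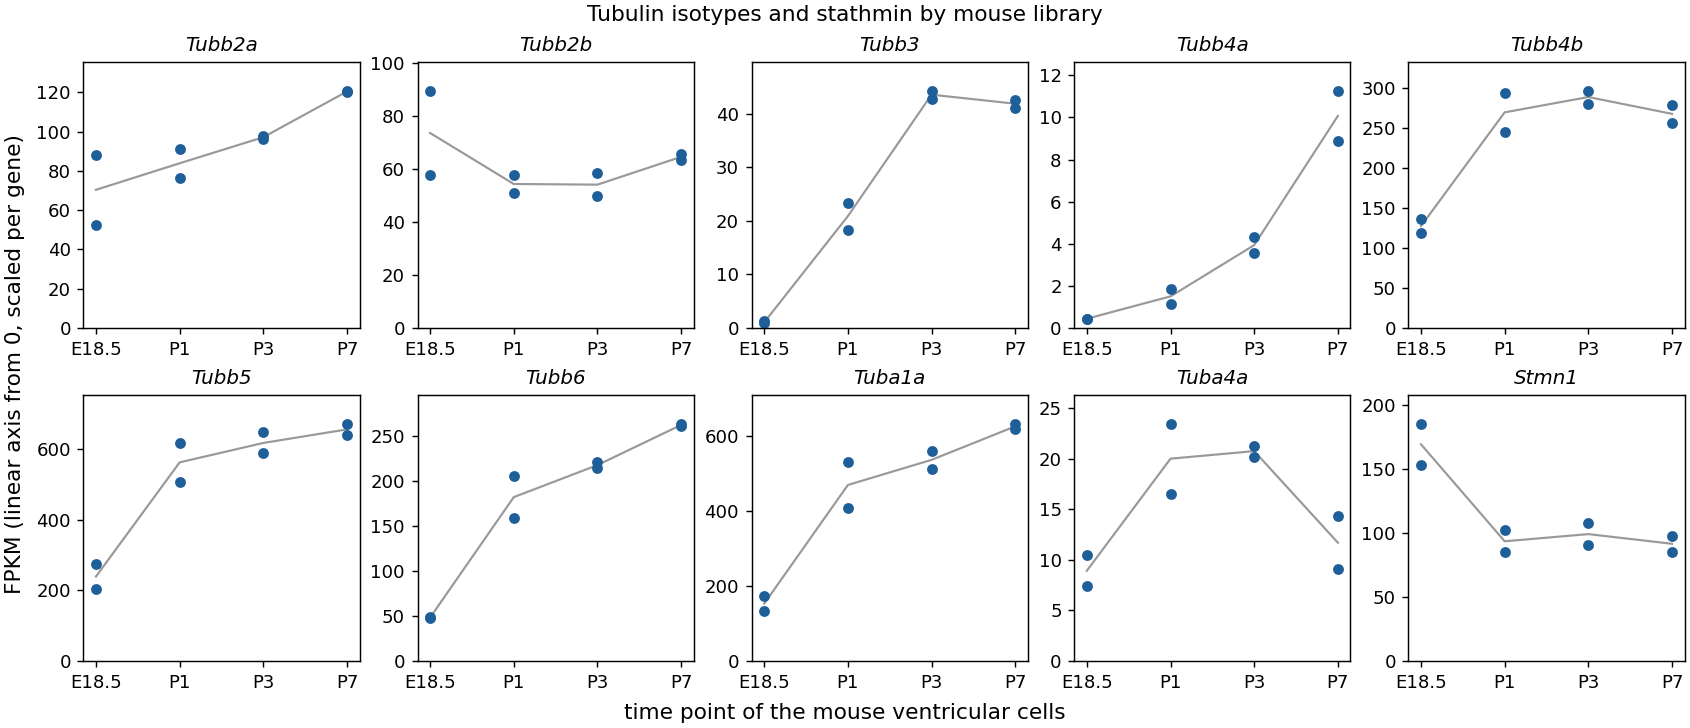
FPKM of each of the 10 genes in the 8 mouse RNA-seq libraries, with time point on the x axis and a linear y axis from 0 scaled per gene. Points are libraries and lines join the means of 2 libraries per time point; most isotypes sit lowest at E18.5, Stmn1 sits highest there, and Tubb4a climbs up to P7.

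Among the β isotypes, Tubb3 differed most. Tubb3 encodes class III β-tubulin, best known from neurons. Its level was 1.24 and 0.853 FPKM at E18.5, then 23.4 and 18.4 (P1), 44.3 and 42.8 (P3) and 41.1 and 42.6 (P7). It was near the floor at E18.5, where it rested on 54 to 68 estimated reads per library, and no later library overlapped these. The log2 difference from E18.5 was 3.42 ± 0.16 (SE) for P1, 4.45 ± 0.16 for P3 and 4.40 ± 0.16 for P7, with ratios of mean FPKM of 20.0, 41.6 and 40.0. Of the 12 neuronal markers, 11 were in the files and only 2 passed the filter, and neither was called at any of these time points. Their sum was 67.6 to 104 FPKM at E18.5 and 56.4 to 79.0 FPKM at P7. Uchl1 held most of it, at 50.7 to 94.2 FPKM over the 8 libraries, followed by Gap43 at 3.31 to 7.94 FPKM, while Nefm reached 1.93 and Prph 1.31 FPKM and the other 7 stayed below 1 FPKM, among them Th and Syt1, which were at 0 in some libraries. The part of neuronal cells in the Tubb3 values was not tested.

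Tubb4a encodes a β isotype that is most abundant in brain. It was listed at 0.427 and 0.449 FPKM at E18.5, then 1.84 and 1.16 (P1), 3.55 and 4.33 (P3) and 8.87 and 11.3 (P7). Each time point lay above the one before it without overlap. The log2 difference from E18.5 was 0.78 ± 0.20 for P1, 1.78 ± 0.20 for P3 and 2.94 ± 0.20 for P7 on the log2(FPKM + 1) scale, which understates the change of so low a gene; with a pseudocount of 0.1 the P1 difference was 1.54. It was the only member called between P7 and P1, where it had passed the filter in both groups (log2 fold change 2.15 ± 0.20, adjusted p = 0.000864), where 3.45% of all genes were called higher and 5.46% lower. Tubb3 came next, at 0.98 ± 0.16 (adjusted p = 0.004788), just under the fold threshold.

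Tubb6, a broadly expressed β isotype that is scarce in brain, was at 48.0 and 48.3 FPKM at E18.5, then 205 and 159 (P1), 214 and 220 (P3) and 263 and 260 (P7). Its E18.5 libraries lay below all others, and the largest step came between E18.5 and P1. Tubb6 rose by 2.42 ± 0.14 at P7 (adjusted p = 1.132e-05; limma), a ratio of mean FPKM of 5.43. Tubb5, a widely expressed isotype, was the most abundant member of the β family in every mouse library, with 204 and 274 FPKM at E18.5, then 616 and 507 (P1), 646 and 587 (P3) and 671 and 639 (P7). It rose by 1.47 ± 0.17 at P7 (adjusted p = 0.0002008). Tubb4b, which is expressed in most tissues, was at 118 and 136 FPKM at E18.5 and between 245 and 297 FPKM in the 6 later libraries, with no trend among them. Its rise of 1.07 ± 0.14 at P7 (adjusted p = 0.0003292) was close to the fold threshold and was not called with size factors (0.95) or without E18.5 replicate 1 (0.97).

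Neither gene of the neighbouring pair Tubb2a and Tubb2b, both abundant in the nervous system, was called against E18.5 in the fit of all 8 libraries. Tubb2a was at 52.3 and 88.3 FPKM at E18.5, then 91.1 and 76.6 (P1), 96.3 and 98.0 (P3) and 120 and 121 (P7). Its P7 libraries lay above E18.5, with a log2 difference of 0.81 ± 0.22 (adjusted p = 0.01413; limma) that did not reach the fold threshold; without E18.5 replicate 2 the difference was 1.19 and was called. Tubb2b was at 57.5 and 89.5 FPKM at E18.5 and between 49.8 and 65.7 FPKM in all later libraries. These groups overlapped, and the difference at P7 was -0.15 ± 0.20 (adjusted p = 0.5451), with its sign turned on TPM (0.11). The ratio of Tubb2a to Tubb2b was 0.910 and 0.987 at E18.5 and 1.83 and 1.91 at P7, and since these genes share reads, it was not tested.

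The α isotypes followed the larger β group. Tuba1a, a main α isotype of the developing nervous system, was at 133 and 173 FPKM at E18.5, then 531 and 407 (P1), 559 and 513 (P3) and 618 and 632 (P7). It rose by 2.04 ± 0.17 at P7 (adjusted p = 4.9e-05; limma), with no overlap between E18.5 and any later group. Tuba4a, the isotype whose gene encodes no terminal tyrosine, was the member with a passing peak of expression: 7.42 and 10.4 FPKM at E18.5, then 16.5 and 23.4 (P1), 21.3 and 20.2 (P3) and 14.3 and 9.08 (P7). Tuba4a was called higher at P1 (1.08 ± 0.25, adjusted p = 0.01077) and at P3 (1.15 ± 0.25, adjusted p = 0.006497) and not at P7 (0.34 ± 0.25, adjusted p = 0.2804). Both early calls were lost without E18.5 replicate 1 (0.86 and 0.93) and with the most abundant transcript alone (adjusted p = 0.05285 and 0.06438; limma). The P1 call was also lost with size factors and without P1 replicate 2 (0.84).

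Stmn1 was the member that lay lower after birth. It was at 153 and 185 FPKM at E18.5, then 102 and 85.0 (P1), 107 and 90.8 (P3) and 97.6 and 85.5 (P7), so that every later library lay below both E18.5 libraries. The log2 difference was -0.85 ± 0.16 at P1 (adjusted p = 0.004045), -0.76 ± 0.16 at P3 (adjusted p = 0.004866) and -0.88 ± 0.16 at P7 (adjusted p = 0.002002; limma), none of which reached the fold threshold. Without E18.5 replicate 1 the P7 difference was -1.01 and was called. The 12 markers of proliferating cells, to which Stmn1 was not added, had 3 genes called higher and 1 lower at P7 (1 and 1 with size factors), and their sums were 439 to 520 FPKM at E18.5 and 574 to 576 FPKM at P7. The summed FPKM of the 7 β and 5 α isotypes per FPKM of Stmn1 was 6.25 and 6.75 at E18.5, then 28.4 and 27.7 (P1), 28.5 and 31.3 (P3) and 33.1 and 36.9 (P7).

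**Figure D2:**
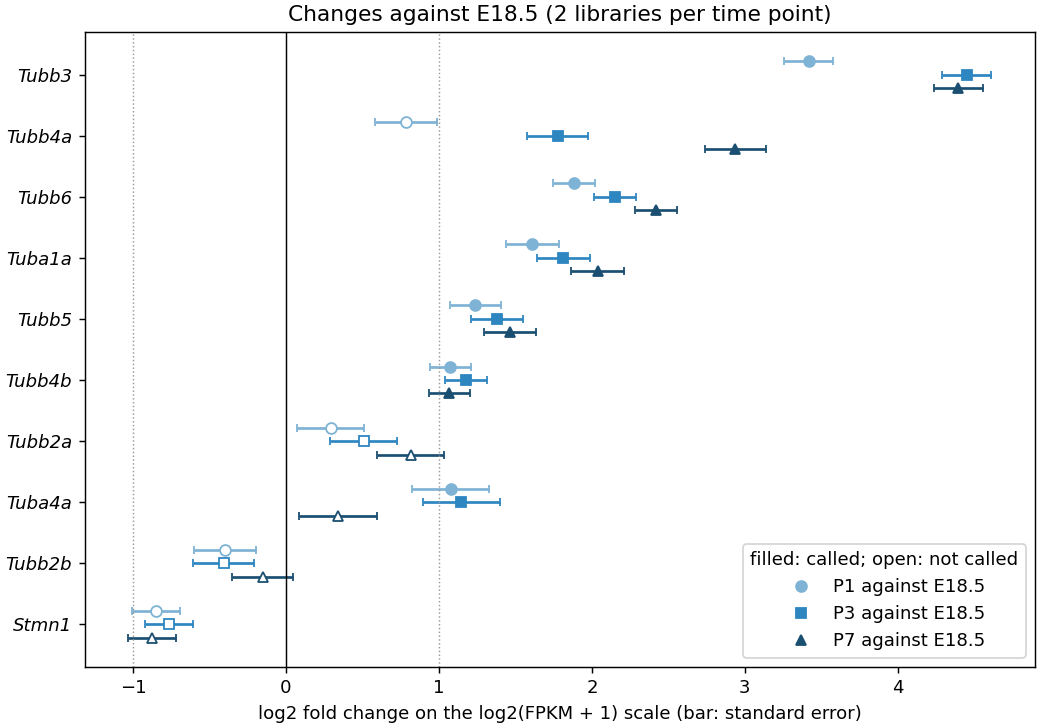
Log2 fold change against E18.5 on the log2(FPKM + 1) scale (x axis, bars are standard errors) for each gene for each postnatal day (2 libraries at every age); filled symbols were called and dotted lines mark the fold threshold of 1. Tubb3 lies farthest to the right (4.40 at P7), Tubb2b straddles 0 and Stmn1 lies to the left (-0.88 at P7). The filter favours Tubb3 and Tubb4a, so their filled symbols are to be read as values and not as tests.

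The isotype composition was described as the share of each gene in the summed FPKM of the 7 β members, a quantity per length and within 1 library. Tubb5 held 42.6% ± 0.44 (SD, n = 2) at E18.5 and 46.1% ± 0.35 at P7. Tubb4b held 23.0% ± 2.3 and 18.8% ± 0.58. Tubb6 went from 8.78% ± 1.7 to 18.4% ± 0.36, the largest gain among the 7, and its libraries did not overlap. Tubb2b went from 12.99% ± 1.5 to 4.54% ± 0.0027, the largest loss, and Tubb2a from 12.4% ± 2.1 to 8.48% ± 0.27. Tubb3 went from 0.195% ± 0.087 to 2.95% ± 0.15 and Tubb4a from 0.0795% ± 0.013 to 0.711% ± 0.14. Most of the change in Tubb2b and Tubb6 was in place at P1, at 4.64% ± 0.24 and 15.4% ± 0.63. In FPKM, the E18.5 and P7 libraries overlapped for Tubb2b, while Tubb2a and Tubb4b lay higher at P7, so their lower shares are not lower levels. Tubb2a and Tubb2b also share reads. Shares are fixed to sum to the same total, so they were not tested.

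The summed level of the β isotypes was 482 and 637 FPKM at E18.5 and 1448 and 1394 at P7, and that of the α isotypes was 475 and 613 at E18.5 and 1782 and 1759 at P7. The ratio of α to β was 0.986 and 0.962 at E18.5 and between 1.22 and 1.26 in every later library. Among the α isotypes, Tuba1b held the largest share throughout, with 54.8% ± 0.96 at E18.5 and 49.5% ± 0.087 at P7. Tuba1a held 28.1% ± 0.23 and 35.3% ± 0.88, and Tuba4a 1.63% ± 0.10 and 0.659% ± 0.20. A large part of the Tuba1a transcript is shared with its paralogs, so its division from Tuba1b and Tuba1c is the least certain of these values.

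**Figure D3:**
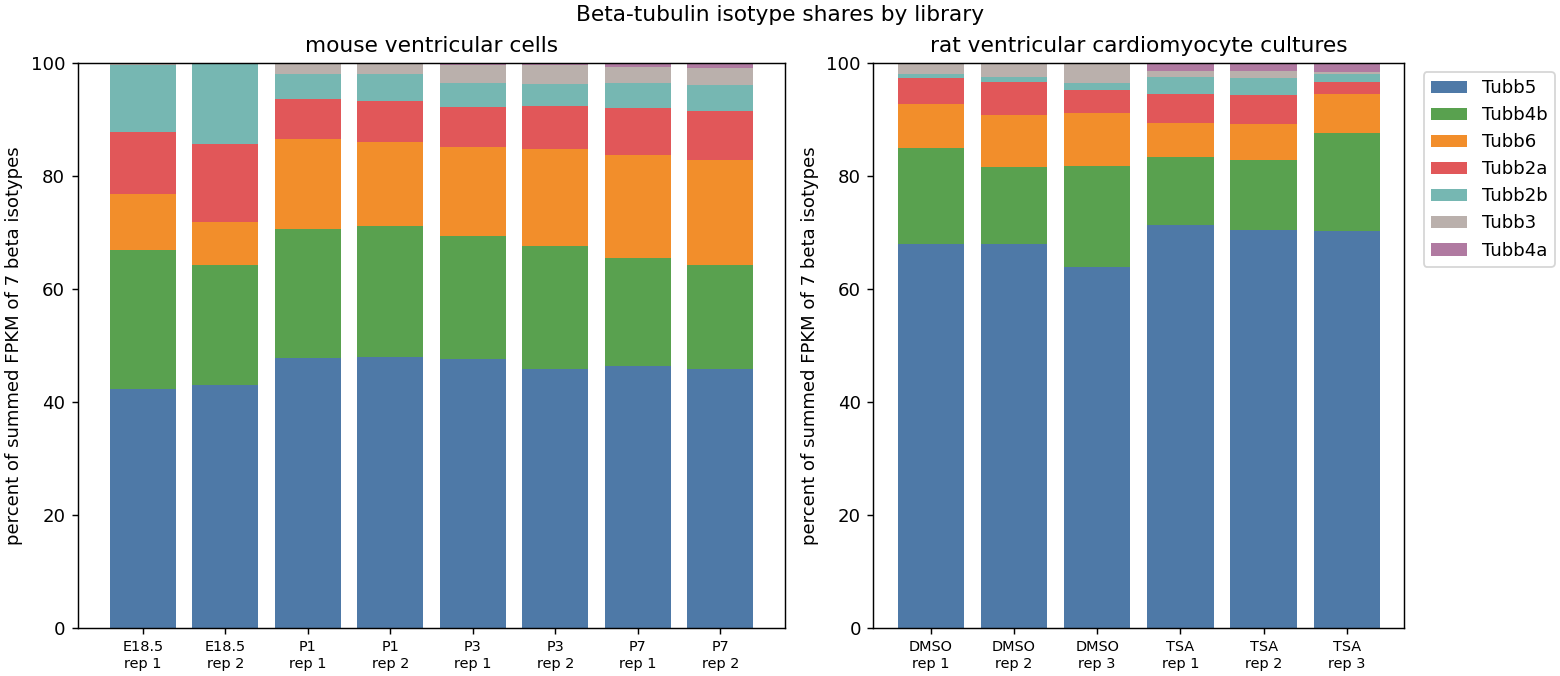
Share of each β isotype in the summed FPKM of the 7 β members, as stacked bars from 0 to 100% for each mouse library (left) and rat library (right). Tubb5 is the largest band everywhere; in mouse the Tubb6 band widens and the Tubb2b band narrows after E18.5, and in rat a Tubb4a band of 1.33% to 1.51% is present with TSA.

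The remaining genes of the pathway were counted in 7 lists. Of the other α- and β-tubulins, 3 of 7 were tested, and Tuba1b (log2 fold change 1.56 ± 0.17, adjusted p = 0.0001386) and Tuba1c (1.62 ± 0.14, adjusted p = 6.047e-05; limma) rose at P7. Tuba8 was at or below 0.605 FPKM at E18.5, between 2.58 and 4.99 FPKM at P1 and P3, and at or below 0.913 FPKM at P7, and it passed the filter only through P1 and P3. Tuba3a, Tuba3b and Tubb1 were below 1 FPKM in every mouse library. Of the other stathmins, Stmn4 was at 3.57 and 1.33 FPKM at E18.5 and at or below 0.627 FPKM later, so it passed the filter only through E18.5, and Stmn2 was below 1 FPKM throughout.

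The counts in the other lists are read against the 15.4% of all genes called higher and 12.3% called lower at P7. The γ-, δ- and ε-tubulin list, which covers the machinery that seeds microtubules, had 2 of 12 genes called higher at P7, with a list median of 0.62 beside 0.15 for all genes tested. They were Mzt2 (1.14) and Tubg2 (1.01). Tubg2 passed the filter only through later groups, so its difference is a value and not a test. Of 19 genes of tubulin folding and autoregulation, 3 were called higher and 0 lower, with a list median of 0.33. They were Tbcd (1.93), a cofactor that assembles the dimer, Tbcel (1.09) and Cct6a (1.00), a subunit of the chaperonin that folds tubulin. Of 10 severing and depolymerising proteins tested, Kif2c (1.33) and Fignl1 (1.04) were called higher, and the list median was 0.50. Of 17 modifying enzymes tested, 2 were called higher, and the list median was -0.11. They were Ttll12 (1.91) and Ttll11 (2.02), and the limit given for Tubg2 holds for Ttll11 as well.

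Of 21 microtubule-associated and plus-end proteins tested, 3 were called higher and 4 lower at P7, with a list median of -0.17. All genes tested also split both ways, with 15.4% called higher and 12.3% lower. The largest changes were Dclk1 (3.75 ± 0.31), Map6 (2.85 ± 0.38), which stabilises microtubules against cold, and Mtus2 (-2.63 ± 0.34, adjusted p = 0.000354; limma). Calls of Tubg2 and Mzt2, of Tbcel and Cct6a, and of Fignl1 were each lost when 1 library was left out, and those of Tbcd, Mtus2, Kif2c and Ttll12 held in every such fit. Tubg2, Dclk1, Map6 and Ttll11 passed the filter only through the later groups in which they were high. Map7, 1 of the 4 called lower, was at 0.734 and 0.789 FPKM at P7 and passed only through groups in which it was higher. The differences of these genes are therefore values and not tests, although the counts of called genes in the lists include them. With size factors the higher counts were 1 of 12 for the γ-, δ- and ε-tubulin list, 2 of 19 for folding and 1 of 10 for severing, and 1 modifying enzyme was called lower beside 2 higher.

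The genes whose log2(FPKM + 1) was most like that of Stmn1 over the 8 mouse libraries were Nop10, Jpt1, Hmgb2, Mafk and Cep128, with Pearson r from 0.983 to 0.991 across the libraries. Those most like Tubb3 were Galnt2, Qsox1, Ppp1r11, Dennd2a and Gusb, with r from 0.997 to 0.998. With 4 time points and the same libraries behind each pair, these values describe the pattern and were not tested.

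The second question was whether open chromatin was found at the starts of these genes. Peaks were those called in each ATAC-seq library on its own, and a gene had a promoter peak where a summit lay within 2.5 kb of a GENCODE vM21 transcript start (mm10). At E18.5, 7 of 10 members had one in both libraries, against 56.5% of all genes tested. At P1 the count was 5, against 41.1%, at P3 it was 10, against 87.2%, and at P7 it was 10, against 82.9%. The lists differ in length, from 13149 peaks at E18.5 to 95257 at P3. With the 13149 peaks of highest score from each library, the counts were 6 (E18.5), 3 (P1), 5 (P3) and 6 (P7), against 53.9%, 31.4%, 36.9% and 44.9% of all genes.

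Tubb2a, Tubb4b, Tuba1a and Stmn1 had a promoter peak in all 8 libraries. For Tubb2a the nearest summit lay between 76 bases upstream and 4 bases downstream of the start in every library, with fold enrichment at the summit from 3.86 to 7.94. Tubb2b, Tubb6 and Tuba4a had a peak in 7 libraries, all but P1 replicate 2, which held the smallest share of all genes with a peak (42.8%). Tubb6 held peaks on either side of its start at E18.5 while its mRNA was at its lowest.

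Tubb3 (chr8:123411424-123422015, plus strand) had no promoter peak in either E18.5 library or in P1 replicate 2. A peak about 1.2 kb upstream, inside the untranslated part of an exon of Mc1r and within the read-through gene model Gm20388, was present in P1 replicate 1 (summit at -1187, fold enrichment 5.12), in both P3 libraries (6.09 and 7.38) and in both P7 libraries (5.48 and 4.20). A second peak at the start itself, with summits between 81 bases upstream and 60 bases downstream of a start, was present in both P3 libraries (4.52 and 3.68) and in both P7 libraries (3.56 and 3.82) only. With lists of equal length the upstream peak was kept at P3 and P7 and the peak at the start was not.

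Tubb4a (chr17:57080066-57087782, minus strand) had a peak in both P3 libraries (fold enrichment 8.16 and 6.63) and in both P7 libraries (4.05 and 3.08) and in no library at E18.5 or P1. Its summits lay 160 to 311 bases downstream of the start, inside a Tubb4a exon and across the border of its untranslated and coding parts. None of the 4 peaks was among the 13149 of highest score, so absence at E18.5 and P1 and the shorter lists there cannot be told apart. Tubb5 (chr17:35833921-35838306, minus strand) had no peak in either E18.5 library, although it was the most abundant β isotype there, and had one near its start in all 6 later libraries with fold enrichment from 4.18 to 6.43. Within 5 kb of a start, both E18.5 libraries held a peak for it. At that time point 66.9% and 62.3% of all genes tested had a promoter peak in the respective libraries.

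**Figure D4:**
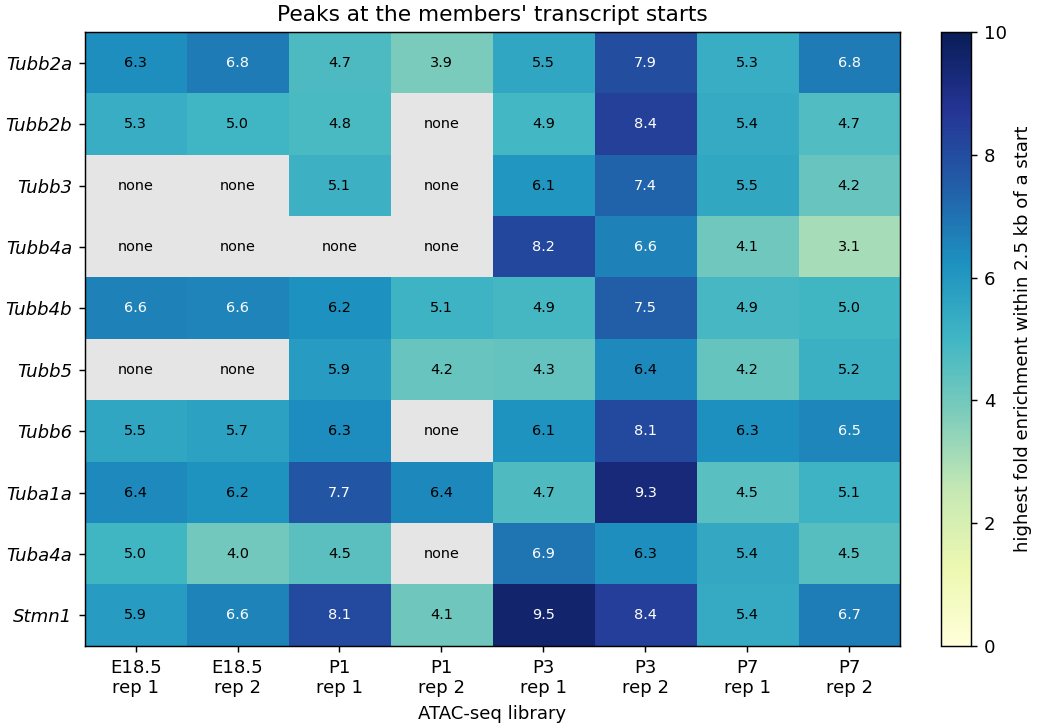
Highest fold enrichment of a peak with its summit within 2.5 kb of a transcript start, for each gene (rows) and each of the 8 ATAC-seq libraries (columns), with grey cells where no peak was called. Tubb4a is filled only at P3 and P7, Tubb3 lacks one at E18.5 and in P1 replicate 2, and Tubb5 lacks one at E18.5 but not later.

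The bases before the start are shown for the members whose peaks differed between time points and for 2 members with peaks throughout. They are RefSeq promoter sequences (GRCm38.p6, which has the mm10 coordinates), 5′ to 3′ on the strand of the gene, trimmed to the bases outside annotated exons, so that for Tubb3, Tubb4a and Tubb5 they stop short of the RefSeq start. Capitals mark matches, on either strand, to the NF-Y box CCAAT, the SP box GGGCGG, the E-box CACGTG, the CRE element TGACGTCA or the TATA box TATAAA, none of which overlapped another in these members. Of the 10 members, 7 were matched in the table, and Tubb2b, Tubb6 and Stmn1 were not.
Tubb3 (chr8:123411303-123411423, plus strand): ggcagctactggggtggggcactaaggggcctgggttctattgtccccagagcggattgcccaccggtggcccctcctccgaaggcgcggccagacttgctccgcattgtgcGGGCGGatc
Tubb4a (chr17:57087783-57087850, minus strand): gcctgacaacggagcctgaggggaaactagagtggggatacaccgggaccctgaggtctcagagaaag
Tubb5 (chr17:35838307-35838551, minus strand): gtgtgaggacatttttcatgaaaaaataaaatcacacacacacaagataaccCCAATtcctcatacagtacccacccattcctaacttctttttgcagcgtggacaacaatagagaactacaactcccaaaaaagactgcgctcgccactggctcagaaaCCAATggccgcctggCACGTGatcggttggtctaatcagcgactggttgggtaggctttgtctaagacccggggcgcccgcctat
Tubb2a (chr13:34078009-34078258, minus strand): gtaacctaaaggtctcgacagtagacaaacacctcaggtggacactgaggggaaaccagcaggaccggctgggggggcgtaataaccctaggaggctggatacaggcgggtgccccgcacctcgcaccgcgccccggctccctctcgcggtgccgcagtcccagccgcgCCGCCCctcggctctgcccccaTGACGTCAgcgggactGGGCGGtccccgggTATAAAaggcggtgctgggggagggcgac
Tubb4b (chr2:25224703-25224952, minus strand): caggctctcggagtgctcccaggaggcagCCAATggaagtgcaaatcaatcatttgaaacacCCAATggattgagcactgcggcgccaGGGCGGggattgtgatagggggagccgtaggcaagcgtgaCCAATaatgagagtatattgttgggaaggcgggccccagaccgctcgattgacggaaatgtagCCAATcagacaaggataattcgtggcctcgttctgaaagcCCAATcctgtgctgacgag

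Over the whole window of 300 bases in the table, from 250 before to 50 after the RefSeq start and so including bases not shown, CCAAT was found in 4 of the 7 members and in 37.4% of all 32851 promoters. Tubb4b held 5 copies of it before its start, Tubb5 held 2, and Tubb3 and Tuba1a held 1 each. GGGCGG was found in 6 of the 7 and in 35.7% of all promoters. Tubb2a held TGACGTCA, which 1.79% of all promoters hold, 59 bases before its start, followed by TATAAA at 29 bases (13.6%). Tubb4b was the other member with TATAAA, but there the match lay 18 bases after the start. The E-box CACGTG, found in 7.15% of all promoters, was in Tubb5. Tubb4a held none of the 5 motifs in this window. A match is a match of letters, and factor binding was not measured.

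The third question was how the same genes responded to TSA in rat cardiomyocyte cultures. Leaving out Tubb4a, 0 of 9 members were called (limma on log2(FPKM + 1), Benjamini-Hochberg), against 1.81% of 13625 genes called higher and 0.316% called lower. At an unadjusted p under 0.05, 2 of the 9 differed, Tubb2b and Tubb3, against 19.8% of all genes. By limma-voom on reads estimated from coverage the count was also 0.

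Tubb4a was listed at 0.0559, 0.305 and 0.351 FPKM with DMSO and at 7.64, 8.51 and 16.7 FPKM with TSA. The DMSO values rest on 4 to 26 estimated reads per library, against 462 to 1381 with TSA. The ratio of mean FPKM was 46.2 and the log2 fold change was 3.20 on the log2(FPKM + 1) scale, values that chose this gene. With a pseudocount of 0.1 the log2 fold change was 5.09, and by limma-voom it was 5.77. In the β family its share was 0.0357% ± 0.025 (SD, n = 3) with DMSO and 1.41% ± 0.097 with TSA, so it remained a minor isotype.

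Tubb2b was at 4.72, 4.84 and 10.9 FPKM with DMSO and at 17.4, 18.3 and 16.1 FPKM with TSA. The groups did not overlap, and TSA replicate 3 was the lowest of its group while DMSO replicate 3 was the highest of its own. The log2 difference of 1.31 ± 0.28 was not called (adjusted p = 0.05696; limma). Without DMSO replicate 3 it was 1.66 (adjusted p = 0.003426), and without replicate 3 of both groups 1.71 (adjusted p = 0.001662), and both were called. The adjacent Tubb2a was at 27.4, 29.8 and 37.4 FPKM with DMSO and at 29.9, 32.0 and 23.2 FPKM with TSA, and its groups overlapped. The ratio of Tubb2a to Tubb2b was 3.42 to 6.15 with DMSO and 1.44 to 1.75 with TSA.

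Tubb3 was at 11.6, 12.1 and 31.9 FPKM with DMSO and at 6.39, 8.05 and 4.95 FPKM with TSA. All TSA libraries lay below all DMSO libraries, with a log2 difference of -1.26 ± 0.38 that did not pass the correction (adjusted p = 0.1325; limma). Within same-numbered replicates the ratio of TSA to DMSO was 0.552, 0.664 and 0.155. Stmn1 was at 93.8, 60.2 and 138 FPKM with DMSO and at 55.0, 61.9 and 75.9 FPKM with TSA, which overlapped, with a difference of -0.53 ± 0.29 (adjusted p = 0.384). The 12 markers of proliferating cells had a median log2 fold change of -1.002 with TSA and 1 called lower (3 with the replicate as a block, 2 without replicate 3 of both groups), and their sums were 144 to 307 FPKM with DMSO and 101 to 135 FPKM with TSA. The part of these cells in the Stmn1 values was not tested.

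The abundant isotypes lay highest in replicate 3 of each treatment, and their groups overlapped. Tubb5 was at 411, 348 and 585 FPKM with DMSO and 410, 436 and 776 with TSA. Tuba1a was at 215, 157 and 577 FPKM with DMSO and 229, 249 and 724 with TSA, so replicate 3 lay 3.11 and 3.03 times above the mean of the others in its group. Tuba4a, Tubb4b and Tubb6 were likewise highest there, and none of the log2 differences with TSA exceeded 0.43 in size. Tubb6 was lower with TSA in each same-numbered pair (ratios of 0.724, 0.814 and 0.880), yet with the replicate as a block its difference of -0.31 had an adjusted p = 0.1199 (limma).

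**Figure D5:**
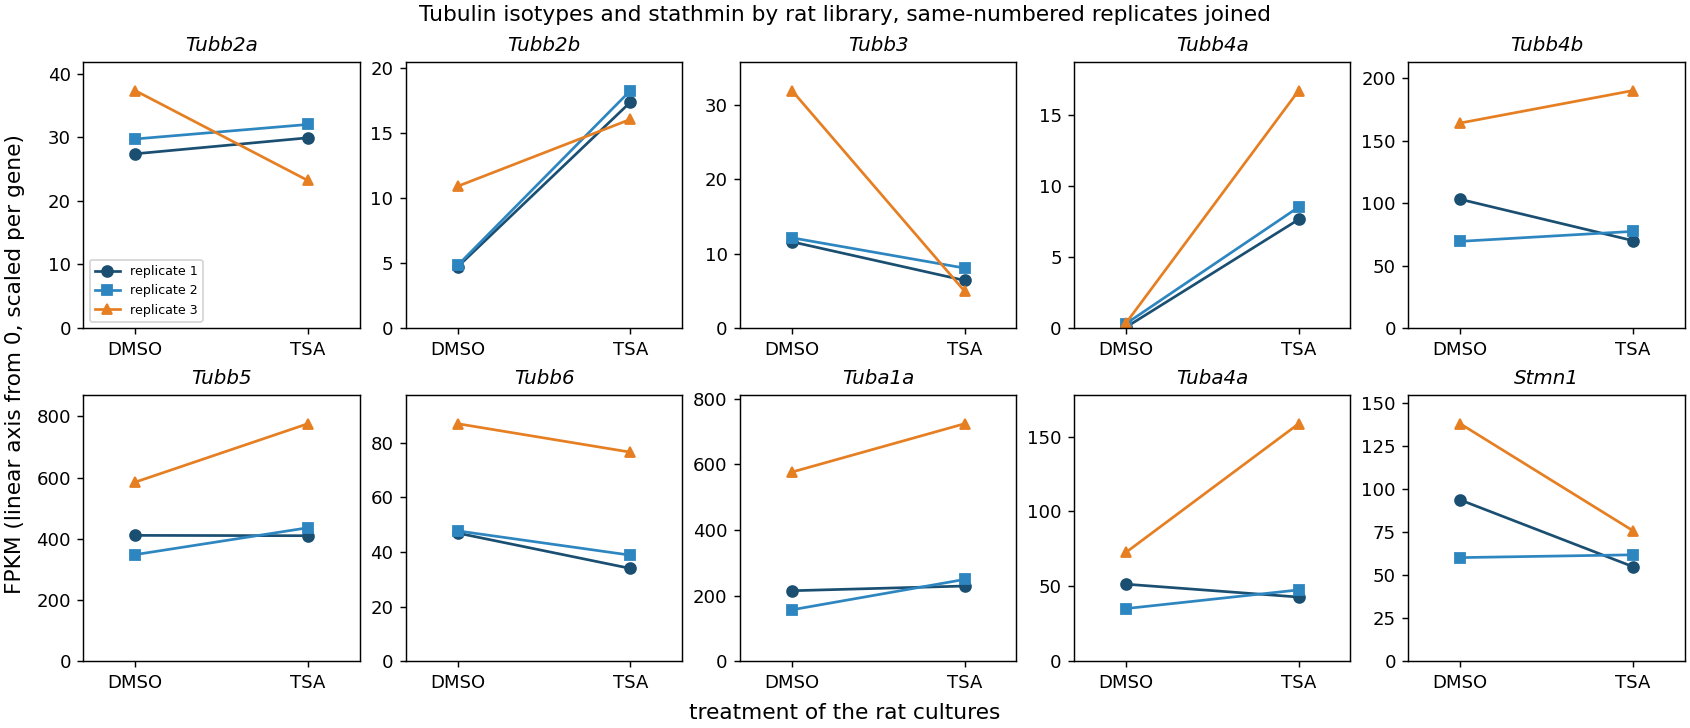
FPKM of each gene in the rat libraries with DMSO and with TSA (x axis), on linear y axes from 0 scaled per gene, with lines joining same-numbered replicates. Tubb4a and Tubb2b lie higher and Tubb3 lower with TSA in all 3 replicates, and replicate 3 lies above the others for Tubb5, Tuba1a, Tubb4b and Tubb6.

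The β composition of the rat cultures was led by Tubb5, with 66.6% ± 2.4 with DMSO and 70.7% ± 0.52 with TSA, and by Tubb4b, with 16.2% ± 2.3 and 13.95% ± 2.8. Tubb6 held 8.85% ± 0.95 and 6.37% ± 0.52, Tubb3 2.59% ± 0.81 and 0.953% ± 0.45, and Tubb2b 0.971% ± 0.21 and 2.48% ± 0.89. For these 3 isotypes and for Tubb5 the shares of the treatments did not overlap. In FPKM the treatments did not overlap for Tubb2b and Tubb3 and did overlap for Tubb5 and Tubb6. These shares too are fixed to sum to the same total, so they were not tested.

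Of the other tubulins and stathmins, Tuba8 was at 0.368, 0.744 and 0.547 FPKM with DMSO and at 2.04, 2.06 and 3.88 FPKM with TSA. Stmn2, a neuronal stathmin, was at or below 0.0872 FPKM with DMSO and at 1.97, 1.53 and 1.15 FPKM with TSA. Both passed the filter only through the TSA libraries, so their calls are not given as tests. Mapt, which encodes tau, was called higher with TSA (2.18 ± 0.32, adjusted p = 0.01883; limma). The Mapt call was lost without any 1 library other than DMSO replicate 3 (adjusted p = 0.05128 to 0.09837). Mapt was the only call among 21 microtubule-associated and plus-end proteins tested. In the remaining lists 0 genes were called, of 11 γ-, δ- and ε-tubulin genes, 19 folding genes, 10 severing proteins and 15 modifying enzymes tested. Of the 12 neuronal markers, 9 were in the rat files and 3 were tested. With TSA 2 of the 3 were called higher (1 with size factors), against 1.81% of all genes. The filter may favour a marker that lay below 1 FPKM in some libraries, and the part of neuronal cells was not tested. The 9 neuronal markers summed to 19.0 to 47.9 FPKM with DMSO and 92.0 to 104 FPKM with TSA, most of it Uchl1, which reached 95.6 FPKM.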

How the data were processed

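The members and gene lists were chosen with earlier results of these data known. RNA-seq came from poly(A) RNA with paired reads of 150 bp. The authors aligned reads with HISAT2 2.1.0 and quantified genes with StringTie (1.3.5 for mouse with GENCODE vM21, mm10, 1.3.4d for rat with Ensembl annotation of Rnor_6.0, per the file headers), and deposited FPKM, TPM and coverage per transcript as attributes of an annotation file. The deposited ATAC-seq peaks were called in each library by the authors with MACS2 on mm10 after duplicate removal, with a score, a fold enrichment (ratio to background) and −log10 p and q values for each peak. HiChIP samples were not analysed here.

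Transcript FPKM were summed per gene. Genes of at least 1 FPKM in 2 mouse or 3 rat libraries were tested with limma 3.58.1 in R 4.3.3 (lmFit and eBayes) on log2(FPKM + 1), in 1 fit over the 4 mouse time points and 1 fit for rat, with Benjamini-Hochberg adjustment. Calls needed an adjusted p below 0.05 with a log2 fold change beyond 1 in either direction. Since FPKM are not counts, the count test of the study was not used. Estimated reads are coverage times transcript length over the read length, and served for an alternative with limma-voom. Depth was solved from the deposited FPKM and coverage. The fit was tested on simulated data. Other alternatives were a pseudocount of 0.1, no filter, mean FPKM of at least 5, TPM, size factors, the most abundant transcript alone, and each replicate left out.

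All members were named, and from each pathway list the genes called, up to 3 by size of change. The like genes are the 5 of highest Pearson r. Same-numbered rat libraries deviated together from their group means (correlations of 0.224, 0.194 and 0.346). Between replicates 1 and 2, the differently numbered libraries had correlations of 0.0904 and 0.167, so only replicate 3 clearly moved together. The labels do not say whether the rat libraries are paired. No member call changed with the replicate as a block. Sequences were processed with Biopython 1.88.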

Additional observations from a re-analysis of the deposited data

How the results depend on the processing

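No reported direction reversed among the called members. The count of members called at P7 against P1, 1 as reported, was 2 with a pseudocount of 0.1, on TPM, with size factors and with limma-voom, where Tubb3 was added, and 0 with a mean FPKM of at least 5, a filter that removed Tubb4a. Leaving out 1 library gave 1 to 3 (2 without P1 replicate 1, 3 without P7 replicate 1). In rat the count of 0 was 0 to 1 on leaving out 1 library, and 1 without replicate 3 of both groups, an alternative chosen after seeing the data. With equal numbers of peaks, members with a promoter peak were 3 (P1), 5 (P3) and 6 (P7), and leaving out 1 library gave 5 to 9 at P1. On estimated reads, which are not per length, the change of β share from E18.5 to P7 was 2.41 percentage points for Tubb3 (2.75 as reported), 4.16 for Tubb5 (3.44) and 7.85 for Tubb6 (9.65), and with TSA it was 1.48 for Tubb4a (1.37). The cause was not tested. Over all genes, the P1 count of 2258 calls was 3547 on TPM. The rat count of 290 was 79 with a mean FPKM of at least 5, 549 without replicate 3 of both groups, and 33 to 458 on leaving out 1 library. With the replicate block the rat count was 339. The mouse numbers do not pair the libraries (correlations of -0.0964 to 0.171), and a block gave 2270, 3062, 3875 and 1247 calls beside 2258, 3055, 3870 and 1245, with no member call changed. Of the alternatives for single members' log2 fold changes, 806 were counted as the same, 11 lost the call and 15 gained it. The 806 include changes of sign where neither fit made a call, as for Tubb2b on TPM. They also include untested rat values of Tubb4a within the SE of the reported one. A further 4 moved that rat value of Tubb4a (2.88 to 5.77, 3.20 as reported). Depth also limits Tubb3 and Tubb4a at E18.5, which rested on 28 to 68 estimated reads.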
